A study of Mus musculus with 6 samples.

Results

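Described here are 10 genes of the JNK and p38 stress kinase pathway in sorted mouse splenic macrophages, of 16058 genes listed in at least 1 of the 6 RNA sequencing libraries. The members are a list of symbols: the adaptor Gadd45b, the top kinase Map3k5 (ASK1), the middle kinases Map2k3, Map2k6, Map2k4 and Map2k7, the end kinases Mapk14 (p38 alpha), Mapk8 (JNK1) and Mapk9 (JNK2), and Mapkapk2 (MK2). All 10 were listed in all 6 libraries, and all 10 passed the filter on low values (1 FPKM or more in 2 libraries or more), as did 11616 genes in all. FPKM, fragments per kilobase of transcript and per unit of sequencing depth, is scaled by transcript length, so levels of different genes can be set side by side.

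The T-ALL group was C57BL/6 mice aged 6 to 8 weeks at day 15 after receiving 1000000 GFP+ T cell acute lymphoblastic leukemia cells without irradiation. The labels describe the injected cells only as taken from mice with leukemia and do not name what drives it. The normal group was C57BL/6 mice with the same age label at day 0, labelled normal spleen and control. In each state the spleen macrophages were sorted by the surface proteins Ly6c and F4/80 into Ly6cloF4/80hi, Ly6cloF4/80lo and Ly6chiF4/80lo cells, and 1 library was made per subset and state. The labels give no number of mice behind a library and no tie of the subsets to separate mice. The p-values therefore rest on how the T-ALL minus normal difference varies between the subsets, and not on the spread between mice. Values per library stand in the order Ly6cloF4/80hi, Ly6cloF4/80lo and Ly6chiF4/80lo.

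Depth recovered from the spacing of FPKM values was 6820000 to 8660000 fragments in the T-ALL libraries and 7780000 to 8060000 in the normal libraries. Adgre1, which encodes F4/80, was at 234 FPKM (T-ALL) and 529 FPKM (normal) in Ly6cloF4/80hi cells and at 47.3 to 86.7 FPKM in the other 4 libraries. Ly6c2 was at 1405 FPKM (T-ALL) and 482 FPKM (normal) in Ly6chiF4/80lo cells and at most at 21.4 FPKM elsewhere. The fractions also carried transcripts of other cells. The summed level of 8 neutrophil markers was 43470 FPKM (T-ALL) and 12990 FPKM (normal) in Ly6chiF4/80lo cells and 90.2 to 361 FPKM in the other libraries. The 9 erythroid markers summed to 35971 FPKM in T-ALL Ly6cloF4/80hi cells and to 569 to 5583 FPKM elsewhere. The 7 B cell markers summed to 1822, 2283 and 1173 FPKM in T-ALL cells and 1727, 3313 and 1367 FPKM in normal cells. In Ly6cloF4/80lo cells, the 8 red pulp macrophage markers summed to less, at 227 FPKM (T-ALL) and 449 FPKM (normal). T cell markers (7 of 8 found) summed to 89.5 to 122 FPKM in T-ALL and 87.3 to 156 FPKM in normal libraries. Cd2 was the highest of them in every library. In Ly6cloF4/80hi cells, all found but Cd2 were higher in T-ALL. Cd3e was at 10.8 FPKM (T-ALL) and 2.22 FPKM (normal) there, and Cd3g at 13.6 FPKM (T-ALL) and 3.29 FPKM (normal). In the other subsets, all found were lower in T-ALL. In sorted bulk RNA, fewer cells of a type and less RNA per cell cannot be told apart.

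JNK and p38 are mitogen-activated protein kinases that cytokines, microbial products and oxidative or osmotic stress switch on through a chain of kinases, each phosphorylating the next. MAP3Ks such as ASK1 activate the middle kinases, of which MKK3 and MKK6 act on p38, MKK7 acts on JNK and MKK4 can act on both. In macrophages, p38 acts through MK2 to stabilise mRNAs of inflammatory cytokines, and JNK phosphorylates c-Jun and related transcription factors. The activity of these kinases is set by phosphorylation, which RNA levels do not measure.

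The promoters of the 3 members that passed a test below are printed to show the DNA in front of the genes that the results turn on. Each is the 250 bases before the first RefSeq start (GRCm38.p6), 5′ to 3′ along the gene, in lower case, with capitals marking matches to 5 motifs searched on both strands. Mapk14 lies at chr17:28691092-28691341 (plus strand), Mapk9 at chr11:49846501-49846750 (plus strand) and Mapkapk2 at chr1:131097844-131098093 (minus strand).
Mapk14: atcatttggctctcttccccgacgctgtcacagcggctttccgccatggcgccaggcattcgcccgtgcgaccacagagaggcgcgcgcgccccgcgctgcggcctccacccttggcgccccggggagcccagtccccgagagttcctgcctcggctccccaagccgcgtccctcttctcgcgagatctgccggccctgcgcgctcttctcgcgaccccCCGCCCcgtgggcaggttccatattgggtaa
Mapk9: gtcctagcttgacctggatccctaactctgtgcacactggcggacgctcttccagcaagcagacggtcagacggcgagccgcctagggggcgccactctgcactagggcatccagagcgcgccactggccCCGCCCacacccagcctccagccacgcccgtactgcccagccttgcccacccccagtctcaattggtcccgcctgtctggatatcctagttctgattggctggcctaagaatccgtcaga
Mapkapk2: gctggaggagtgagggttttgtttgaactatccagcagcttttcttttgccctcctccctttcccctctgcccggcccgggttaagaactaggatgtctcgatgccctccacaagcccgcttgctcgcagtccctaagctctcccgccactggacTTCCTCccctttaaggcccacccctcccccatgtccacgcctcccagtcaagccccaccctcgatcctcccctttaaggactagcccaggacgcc
The capitals in Mapk14 and Mapk9 are a GC box (GGGCGG), and those in Mapkapk2 are the PU.1 core (GAGGAA), all read from the other strand. None of the 3 windows held an AP-1 site (TGANTCA), a CRE (TGACGTCA) or an NF-kB site. GC content was 70.4% for Mapk14, 63.6% for Mapk9 and 60.4% for Mapkapk2, beside a median of 52.4% over 32851 RefSeq windows, alternative starts included. Members are counted at their first start only, so their counts and the shares of all windows are not matched. Over the first promoters of all 10 members, a GC box was found in 6, beside 32.7% of all windows. The PU.1 core was found in 2 members (Map3k5 and Mapkapk2), beside 23.3% of windows, and AP-1 in 1 (Map2k6), beside 6.75%. CRE and NF-kB matches were found in 0 members, beside 1.55% and 7.25% of windows. A match describes these letters and is not a measured binding site.

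The pathway's transcripts spanned a wide range of levels, with the adaptor Gadd45b and the middle kinase Map2k3 highest and Mapk8 and Map3k5 lowest. Gadd45b, which binds the MAP3K MTK1 (MEKK4) and also MKK7, was at 60.8, 72.1 and 74.8 FPKM in T-ALL cells and 42.1, 74.5 and 36.4 FPKM in normal cells. Map2k3, which encodes MKK3, was at 61.0, 51.5 and 45.8 FPKM in T-ALL cells and 45.1, 34.4 and 41.6 FPKM in normal cells. These 2 genes held ranks 1 and 2 among the members in all 6 libraries. The lowest was Mapk8, at 1.45, 1.22 and 0.88 FPKM in T-ALL cells and 3.51, 1.84 and 1.28 FPKM in normal cells, which ranked last in 5 libraries and held rank 9 in normal Ly6cloF4/80hi cells. At the recovered depth, Mapk8 in T-ALL Ly6chiF4/80lo cells rests on about 6 fragments if its shortest annotated coding transcript (927 bases) is used and about 35 if its longest (5756 bases) is. The summed level of the 10 members was 199, 213 and 195 FPKM in T-ALL cells and 176, 221 and 171 FPKM in normal cells, and the ranges of the states overlapped.

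**Figure D1:**
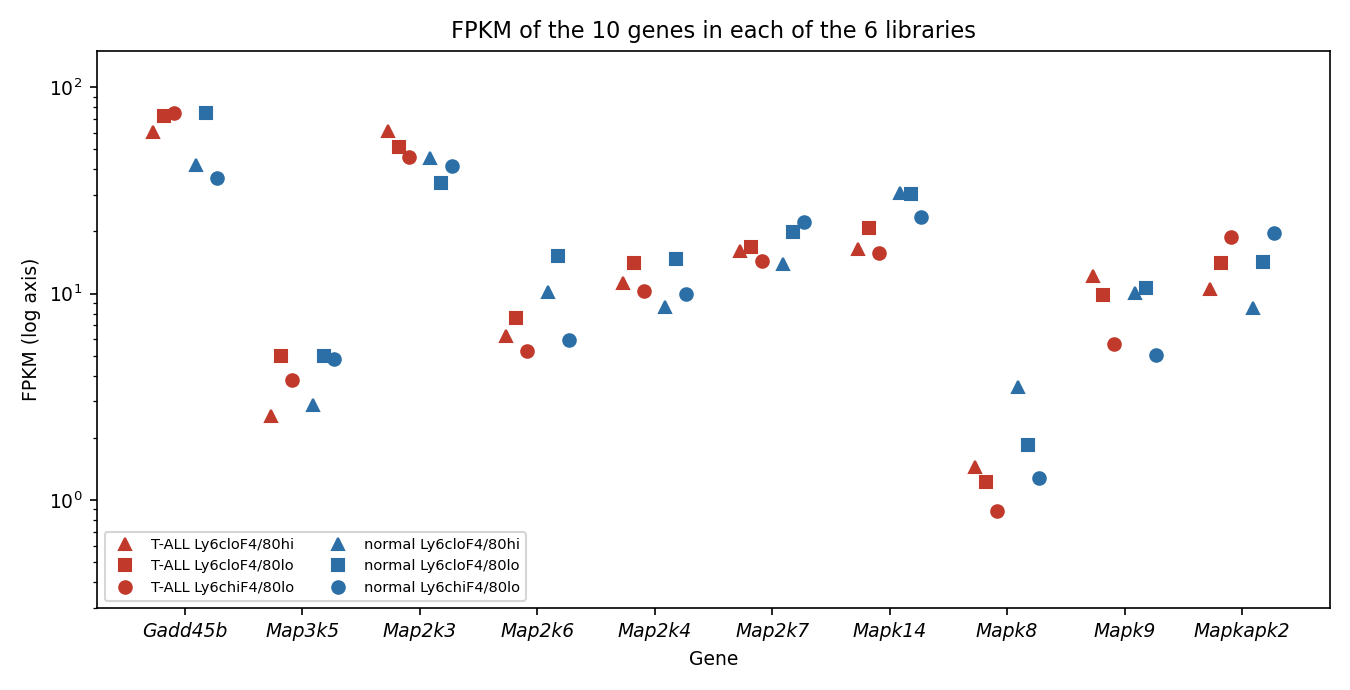
FPKM of each member (log axis) in the 6 libraries, with T-ALL in red left of normal in blue and the subset given by the symbol. Gadd45b and Map2k3 lie at the top and Mapk8 at the bottom in most libraries, and for Mapk14 the 3 T-ALL points lie below the 3 normal points.

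Within pairs of kinases that share a target, Map2k3 exceeded Map2k6 in every library and Mapk9 exceeded Mapk8. Map2k3 made up 90.7, 87.2 and 89.7% of the summed Map2k3 and Map2k6 FPKM in T-ALL cells, and 81.6, 69.3 and 87.5% in normal cells. Mapk9 made up 89.4, 89.0 and 86.6% of the 2 JNK genes' sum in T-ALL cells and 74.0, 85.3 and 79.7% in normal cells. In both pairs the T-ALL share exceeded the normal share within each subset, and over the 3 libraries of each state only the Mapk9 share did not overlap. The gap was small, from 85.3% (normal Ly6cloF4/80lo) to 86.6% (T-ALL Ly6chiF4/80lo), and the latter share rests on Mapk8 at 0.88 FPKM. Map2k7 made up 58.8, 54.5 and 58.2% of the summed Map2k4 and Map2k7 FPKM in T-ALL cells and 61.7, 57.5 and 69.1% in normal cells. These shares are descriptions of 1 library each and were not tested.

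The comparison of T-ALL with normal mice asks how the leukemia state goes with expression in the same 3 sorted subsets. Mapk14, the p38 gene with the highest level in 5 of the 6 libraries, was lower in T-ALL than in normal libraries in every subset. It was the 1 member of 10 that passed the test, beside 12.1% of the 11616 tested genes in either direction (8.20% higher and 3.94% lower), so the members' count is near the background. The members' median log2 difference was -0.03, as was that of all tested genes. Differences are T-ALL minus normal on the log2(FPKM + 1) scale, fitted with limma over all 6 libraries with subset as a block, and p is two-sided and adjusted over all tested genes by the method of Benjamini and Hochberg.

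Mapk14, which encodes p38 alpha, the isoform through which macrophages mostly signal to MK2, was at 16.5, 20.9 and 15.8 FPKM in T-ALL cells and 30.8, 30.2 and 23.5 FPKM in normal cells. All 3 T-ALL values lie below all 3 normal values, and the gap is widest in Ly6cloF4/80hi cells. The fitted difference was -0.64 (SE 0.14, limma adjusted p = 0.0396). Within subsets it was -0.87 in Ly6cloF4/80hi, -0.51 in Ly6cloF4/80lo and -0.55 in Ly6chiF4/80lo cells. The call is close to the threshold: it was lost when any 1 of the 6 libraries was left out (adjusted p 0.065 to 0.157), while the difference stayed between -0.71 and -0.53. Leaving out either library of a subset gave the same difference, so these are not 6 separate checks. Each such fit also leaves fewer residual degrees of freedom than the reported fit. A lost call therefore does not by itself show that the difference rests on the library left out. The call was also lost without the filter on low values (adjusted p = 0.0783), without the trended and robust prior (0.057) and without the subset block (0.167).

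Other transcripts moved with the state. The summed level of 7 cell cycle markers was 464 to 695 FPKM in T-ALL and 86.4 to 116 FPKM in normal libraries, with no overlap for 7 of 7 genes, and that of 5 platelet markers was 35.2 to 56.7 FPKM in T-ALL and 16.8 to 22.3 FPKM in normal libraries, with no overlap for 3 of 5. Within each subset, red pulp macrophage markers were lower in T-ALL (2541, 227 and 230 FPKM in T-ALL and 8491, 449 and 446 FPKM in normal cells), and so were dendritic cell markers (90.2, 200 and 90.3 FPKM in T-ALL and 150, 384 and 328 FPKM in normal cells). Higher in T-ALL within each subset were the sums of erythroid markers (35971, 5583 and 801 FPKM in T-ALL and 4467, 569 and 780 FPKM in normal cells) and of plasma cell markers (1665, 1710 and 14571 FPKM in T-ALL and 450, 726 and 5813 FPKM in normal cells). The same held for myeloid progenitor markers, with 5 of 6 found (65.0, 280 and 1730 FPKM in T-ALL and 12.2, 24.5 and 234 FPKM in normal cells), and for basophil markers (116, 301 and 21.8 FPKM in T-ALL and 13.7, 28.8 and 7.94 FPKM in normal cells). Of these 6 lists, single markers did not overlap between the states for 1 of 6 dendritic cell genes, 1 of 4 basophil genes and 0 genes of the other lists. No marker found was at 0 in any library. The part of these transcripts in the Mapk14 difference was not tested.

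The middle kinases of the p38 arm had differences of opposite sign, and neither passed the test. Map2k3 had the values given above, with all 3 T-ALL libraries above the highest normal library. Its fitted difference was 0.38 (SE 0.15, limma adjusted p = 0.128), and it was positive in all 3 subsets (0.43, 0.57 and 0.13). Map2k6, which encodes MKK6, was at 6.25, 7.57 and 5.26 FPKM in T-ALL cells and 10.2, 15.3 and 5.96 FPKM in normal cells. Each T-ALL value lies below its normal counterpart, but the ranges of the states overlap, since normal Ly6chiF4/80lo cells were as low as the T-ALL libraries. The fitted difference was -0.57 (SE 0.19, limma adjusted p = 0.0944). The ratio of Map2k3 to Mapk14 FPKM was 3.71, 2.47 and 2.90 in T-ALL cells and 1.46, 1.14 and 1.77 in normal cells. Neither gene overlaps between the states, and they differ in opposite directions, so this ratio could not overlap and is no further result.

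The JNK arm had no member that passed the test between the states. Mapk8 was lower in T-ALL libraries in each subset, with a fitted difference of -0.50 (SE 0.21, limma adjusted p = 0.145). The highest T-ALL value, in Ly6cloF4/80hi cells, exceeded the lowest normal value, in Ly6chiF4/80lo cells. Mapk9 was at 12.2, 9.84 and 5.68 FPKM in T-ALL cells and 10.0, 10.7 and 5.04 FPKM in normal cells. Both states follow the same order of low values in Ly6chiF4/80lo cells, and the fitted difference was 0.10 (SE 0.15, limma adjusted p = 0.668). The ratio of Mapk14 to the sum of Mapk8 and Mapk9 was 1.21, 1.89 and 2.40 in T-ALL cells and 2.28, 2.41 and 3.71 in normal cells, lower in T-ALL within each subset.

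Map2k4, which encodes MKK4, was at 11.3, 14.0 and 10.3 FPKM in T-ALL cells and 8.59, 14.7 and 9.98 FPKM in normal cells. The states overlap, with Ly6cloF4/80lo highest in both. Map2k7, which encodes MKK7, was at 16.1, 16.8 and 14.4 FPKM in T-ALL cells and 13.9, 19.9 and 22.3 FPKM in normal cells. Its state difference was 0.20 in Ly6cloF4/80hi cells and -0.60 in Ly6chiF4/80lo cells, and no test of that contrast was possible with 1 library per subset and state. Map2k7 shares 1349 exonic bases with Gm49320 on the same strand (GENCODE M21), so reads of these genes can be split by the counting. Fitted differences were 0.11 for Map2k4 (limma adjusted p = 0.633) and -0.21 for Map2k7 (limma adjusted p = 0.445).

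At the top and the bottom of the cascade, Gadd45b had the largest difference within a subset on the log2(FPKM + 1) scale (1.02 in Ly6chiF4/80lo cells), and Mapkapk2 had small ones. As a ratio of FPKM, Mapk8 in Ly6cloF4/80hi cells differed more, at 0.413. Gadd45b was 2.05 times as high in T-ALL as in normal Ly6chiF4/80lo cells and 1.44 times as high in Ly6cloF4/80hi cells, whereas its ratio in Ly6cloF4/80lo cells was 0.968. The T-ALL range lies within the upper part of the normal range, apart from the highest T-ALL value, and the fitted difference was 0.50 (SE 0.22, limma adjusted p = 0.161). Map3k5 was at 2.56, 4.98 and 3.82 FPKM in T-ALL cells and 2.88, 4.96 and 4.79 FPKM in normal cells. The states overlap almost fully, and the fitted difference was -0.13 (limma adjusted p = 0.613). Mapkapk2, the kinase that p38 activates, was at 10.5, 14.1 and 18.8 FPKM in T-ALL cells and 8.47, 14.3 and 19.7 FPKM in normal cells. Its values follow the subset rather than the state, and the state difference was 0.07 (SE 0.14, limma adjusted p = 0.765).

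Within the subsets, the difference had 1 sign in all 3 subsets for 4 of 10 members (higher for Map2k3, lower for Mapk8, Mapk14 and Map2k6), beside 57.9% of tested genes (27.9% higher and 30.0% lower). Groups did not overlap for 2 of 10 (Map2k3 and Mapk14), beside 24.6% of tested genes (13.8% higher and 10.9% lower). With 1 library per state inside a subset, a 2-fold difference on the log2(FPKM + 1) scale was counted without a test. In Ly6chiF4/80lo cells it was reached by 1 member (Gadd45b), beside 12.0% of the genes that reached 5 FPKM in either library (7.51% were higher). It was reached by 0 members in Ly6cloF4/80lo cells and by 0 in Ly6cloF4/80hi cells, beside 7.21% and 17.3% of such genes. Mapk8 and Map3k5 stayed under 5 FPKM in every library, so they are counted among the 10 members but not among those genes.

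**Figure D2:**
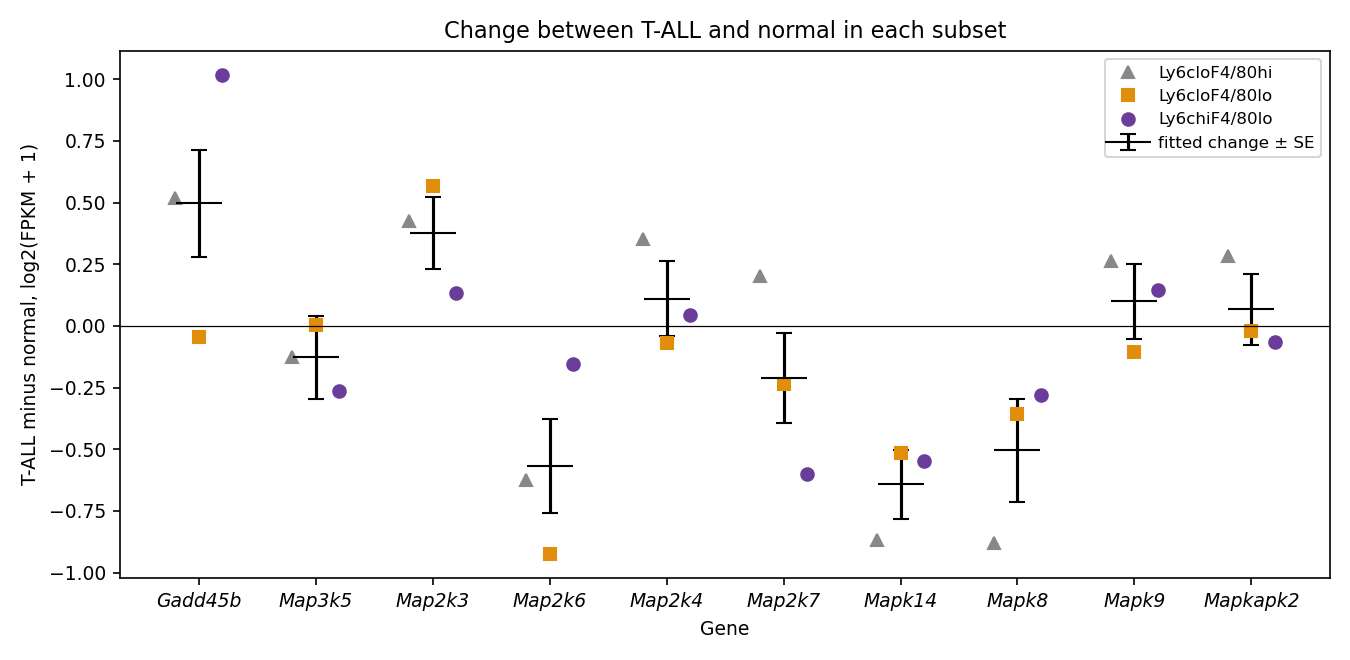
T-ALL minus normal difference of each member on the log2(FPKM + 1) scale, with 1 symbol per subset and the fitted difference with its SE as black crosses. All 3 points lie below 0 for Mapk14, Mapk8 and Map2k6 and above 0 for Map2k3, and the Gadd45b points run from -0.05 in Ly6cloF4/80lo to 1.02 in Ly6chiF4/80lo cells.

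The comparison of Ly6cloF4/80hi with Ly6chiF4/80lo cells asks how the most F4/80-rich subset and the Ly6c-rich subset differ, whatever the state. Mapk9 was higher and Mapkapk2 lower in Ly6cloF4/80hi cells, in T-ALL and in normal mice alike. These were the 2 members of 10 that passed the test, beside 12.8% of tested genes (7.10% higher and 5.68% lower). The members' median difference, Ly6cloF4/80hi minus Ly6chiF4/80lo, was 0.09, beside 0.12 for all tested genes. Median-ratio rescaling of the libraries brought the all-gene median to 0.02 and gave 647 higher and 783 lower calls in place of 825 higher and 660 lower. Relative to the all-gene median, Mapk9 differed by 0.80 and Mapkapk2 by -1.08.

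Mapk9, which encodes JNK2, averaged 11.1 FPKM in Ly6cloF4/80hi cells (12.2 in T-ALL, 10.0 in normal) and 5.36 FPKM in Ly6chiF4/80lo cells (5.68 in T-ALL, 5.04 in normal). The lowest Ly6cloF4/80hi value is well above the highest Ly6chiF4/80lo value. The fitted difference was 0.92 (SE 0.19, limma adjusted p = 0.0288). The call was lost without the filter on low values (adjusted p = 0.0555), after quantile normalization (0.0611) and without the state block (0.108). It was also lost on leaving out T-ALL Ly6cloF4/80hi (0.127), normal Ly6cloF4/80hi (0.0789), T-ALL Ly6chiF4/80lo (0.0938) or normal Ly6chiF4/80lo (0.101).

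Mapkapk2, which encodes MK2, averaged 9.51 FPKM in Ly6cloF4/80hi cells (10.5 in T-ALL, 8.47 in normal) and 19.3 FPKM in Ly6chiF4/80lo cells (18.8 in T-ALL, 19.7 in normal). The subsets do not overlap, and Ly6cloF4/80lo cells lie between them in both states. The fitted difference was -0.96 (SE 0.18, limma adjusted p = 0.0219). The call was lost without the state block (adjusted p = 0.0903) and on leaving out normal Ly6cloF4/80hi (0.122), T-ALL Ly6chiF4/80lo (0.0571) or normal Ly6chiF4/80lo (0.0918).

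Cell type markers, among them those of red pulp macrophages and monocytes, moved with the same 2 subsets. Adgre1, which encodes the sorted F4/80, is in the red pulp macrophage list, and Ly6c2 is in the Ly6Chi monocyte list. Neutrophil markers summed to 188 FPKM (T-ALL) and 307 FPKM (normal) in Ly6cloF4/80hi cells and to 43470 FPKM (T-ALL) and 12990 FPKM (normal) in Ly6chiF4/80lo cells, with 8 of 8 lower in Ly6cloF4/80hi without overlap. Red pulp macrophage markers summed to 2541 FPKM (T-ALL) and 8491 FPKM (normal) in Ly6cloF4/80hi cells and to 230 FPKM (T-ALL) and 446 FPKM (normal) in Ly6chiF4/80lo cells, with 8 of 8 higher. Erythroid markers summed to 35971 FPKM (T-ALL) and 4467 FPKM (normal) in Ly6cloF4/80hi cells and to 801 FPKM (T-ALL) and 780 FPKM (normal) in Ly6chiF4/80lo cells, with 9 of 9 higher. Plasma cell markers summed to 1665 FPKM (T-ALL) and 450 FPKM (normal) in Ly6cloF4/80hi cells and to 14571 FPKM (T-ALL) and 5813 FPKM (normal) in Ly6chiF4/80lo cells, with 5 of 5 lower. NK cell markers summed to 107 FPKM (T-ALL) and 82.5 FPKM (normal) in Ly6cloF4/80hi cells and to 205 FPKM (T-ALL) and 441 FPKM (normal) in Ly6chiF4/80lo cells, with 6 of 6 lower, and myeloid progenitor markers, with the sums given above, were 5 of 5 lower. B cell markers summed to 1822 FPKM (T-ALL) and 1727 FPKM (normal) in Ly6cloF4/80hi cells and to 1173 FPKM (T-ALL) and 1367 FPKM (normal) in Ly6chiF4/80lo cells, with 7 of 7 higher. Without overlap, 4 of 6 Ly6Chi monocyte and 5 of 6 Ly6Clo monocyte markers were lower. No marker of these lists was at 0 in any library, and their part in the Mapk9 and Mapkapk2 differences was not tested.

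The other 8 members did not pass between these subsets. Their fitted differences ran from -0.51 for Map3k5 (limma adjusted p = 0.162) to 0.68 for Mapk8 (limma adjusted p = 0.14), with Map2k6 at 0.45, Map2k3 at 0.26, Mapk14 at 0.22, Map2k4 at -0.04, Gadd45b at -0.05 and Map2k7 at -0.25. The 2 libraries of each subset did not overlap for 5 of 10 members (Mapk8, Mapk9 and Map2k6 higher, Map3k5 and Mapkapk2 lower), beside 43.4% of tested genes (27.1% higher and 16.3% lower).

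**Figure D3:**
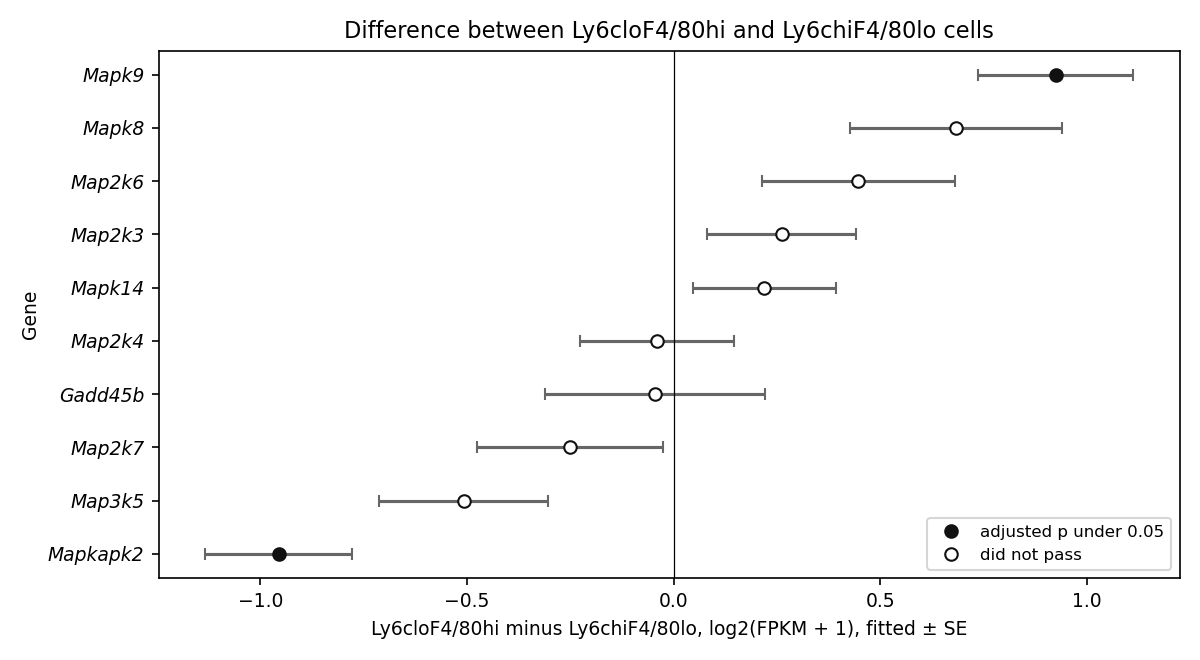
Fitted difference of each member, Ly6cloF4/80hi minus Ly6chiF4/80lo, on the log2(FPKM + 1) scale with its SE, with filled symbols for an adjusted p under 0.05. Mapk9 at 0.92 and Mapkapk2 at -0.96 are the filled symbols and lie at the 2 ends.

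Ly6cloF4/80lo cells, which share low Ly6c with one neighbour and low F4/80 with the other, were also compared with both. Against Ly6chiF4/80lo cells, limma called 0 members, beside 4.73% of tested genes. At an unadjusted p under 0.05 there were 3 members of 10, beside 3060 genes (26.3% of those tested). These were Mapk9 at 0.82 (adjusted p = 0.0639), Map2k6 at 0.84 (adjusted p = 0.0963) and Map2k4 at 0.46 (adjusted p = 0.184). The all-gene median of this difference was 0.19, and 0.01 after median-ratio rescaling, which also gave 159 higher and 284 lower calls in place of 311 higher and 238 lower. Ly6cloF4/80hi against Ly6cloF4/80lo cells gave 0 limma calls among the members, beside 3.56% of tested genes. It gave 3 members of 10 at an unadjusted p under 0.05, beside 2209 genes (19.0% of those tested). Those were Map3k5 at -0.68, Mapkapk2 at -0.54 and Map2k4 at -0.50.

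Over all 6 libraries, Map2k6 varied most among the members, with a range of 1.38 on the log2(FPKM + 1) scale, followed by Mapk8 (1.26) and Mapkapk2 (1.13), and Map2k7 varied least (0.65). The non-member genes whose log2(FPKM + 1) followed Map2k6 most closely were Jmjd1c (Pearson r = 0.993), Zup1 (0.991) and Ubr1 (0.990). For Mapk8 they were Tef (0.995), Arhgef2 (0.993) and Cracr2b (0.992). For Mapkapk2 they were Sec24c (0.997), Lrrfip2 (0.995) and Plac8 (0.995). Each r is a description over 6 libraries that share subsets and states, and no function is read from it.

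The wider pathway was read from 8 lists of 70 genes, of which 59 were tested. Between the states, 2 of the 59 were higher in T-ALL, 4 were lower and 53 did not pass, beside 8.20% higher and 3.94% lower among all tested genes. The median difference was -0.27 for the lists and -0.03 for all tested genes. Between Ly6cloF4/80hi and Ly6chiF4/80lo cells, 1 was higher, 4 were lower and 54 did not pass, beside 7.10% higher and 5.68% lower among all tested genes, and the median was 0.06 for the lists and 0.12 for all tested genes. Called shares of the lists are no higher than those of all genes in either comparison, taking both directions together.

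Upstream, 0 of 13 tested MAP3K genes passed in either comparison (limma), and at an unadjusted p under 0.05 there were 5 between the states and 2 between the subsets, beside 34.8% and 29.3% of all tested genes. The T-ALL differences were -0.72 for Map3k3 (adjusted p = 0.0574) and -0.56 for Map3k8 (adjusted p = 0.0519). Map3k8 passed under 4 of 13 alternatives (adjusted p 0.0429 to 0.0482 with a pseudocount of 0.1, a minimum mean of 5 FPKM, median-ratio rescaling or quantile normalization), and Map3k3 passed on leaving out T-ALL Ly6cloF4/80lo (0.0458). Of 8 tested adaptors and partners of ASK1 or TAK1, 1 passed between the states. Txn1, thioredoxin, which binds and holds ASK1 inactive while reduced, was at 353, 266 and 343 FPKM in T-ALL cells and 211, 120 and 112 FPKM in normal cells. All T-ALL values exceed all normal values, and the difference was 1.16 (SE 0.21, limma adjusted p = 0.0249). The Txn1 call was lost on leaving out T-ALL Ly6chiF4/80lo (0.0572) or normal Ly6chiF4/80lo (0.0649), without the filter (0.0608) and without the block (0.138). Of 3 tested scaffold genes, 0 passed in either comparison (3 between the states and 0 between the subsets at an unadjusted p under 0.05), with a T-ALL difference of -0.83 for Arrb2 (limma adjusted p = 0.0596).

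Among the 4 genes that encode p38, Mapk14 held the largest share in 5 libraries and Mapk13 in T-ALL Ly6chiF4/80lo cells. Mapk13, p38 delta, was at 0.50, 2.15 and 18.8 FPKM in T-ALL cells and 1.23, 3.38 and 7.95 FPKM in normal cells. It made up 48.9% of the p38 sum in T-ALL Ly6chiF4/80lo cells and 19.7% in normal Ly6chiF4/80lo cells, and at most 5.81% in the other libraries. Mapk13 was lower in Ly6cloF4/80hi than in Ly6chiF4/80lo cells, with a fitted difference of -2.86 (SE 0.44, limma adjusted p = 0.0123), a call lost on leaving out T-ALL Ly6cloF4/80hi (0.0774). Mapk13 is high in the 2 libraries with the highest neutrophil and plasma cell marker sums. Myeloid progenitor, NK cell and monocyte marker sums are also highest there within each state, and the part of all these cells in its level was not tested.

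Mapk11, p38 beta, was at 14.1, 15.6 and 3.73 FPKM in T-ALL cells and 13.7, 23.2 and 8.48 FPKM in normal cells. It was higher in Ly6cloF4/80hi than in Ly6chiF4/80lo cells by 1.15 (SE 0.27, limma adjusted p = 0.0412). That call was lost under 9 of 13 alternatives (adjusted p up to 0.216), among them leaving out T-ALL Ly6cloF4/80hi (0.163), T-ALL Ly6cloF4/80lo (0.0543), normal Ly6cloF4/80lo (0.063) or T-ALL Ly6chiF4/80lo (0.168). Mapk12, p38 gamma, was at most at 1.41 FPKM, and the third JNK gene, Mapk10, at most at 0.05 FPKM. The summed p38 level was 32.0, 39.8 and 38.5 FPKM in T-ALL cells and 46.4, 58.2 and 40.4 FPKM in normal cells, lower in T-ALL within each subset.

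**Figure D4:**
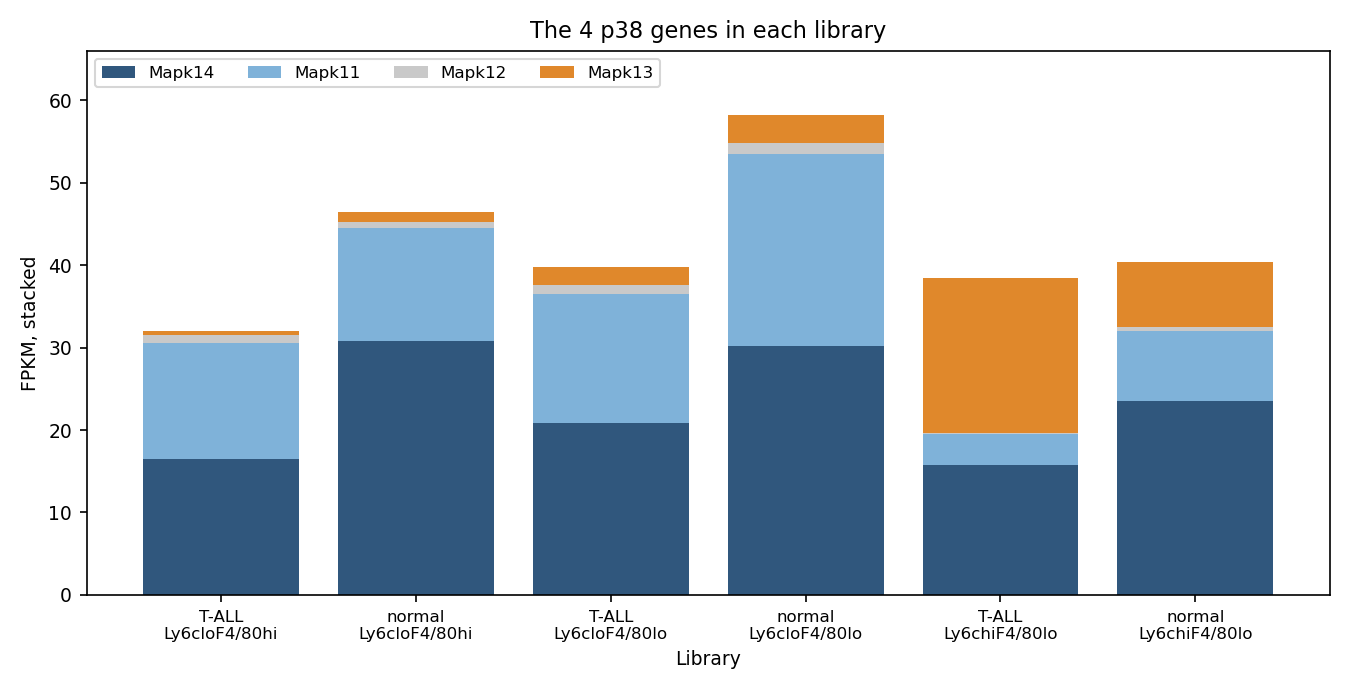
Stacked FPKM of the 4 p38 genes in each library, with T-ALL left of normal for each subset. The Mapk14 segment is shorter in T-ALL in all 3 pairs, and the Mapk13 segment is largest in T-ALL Ly6chiF4/80lo cells (18.8 FPKM).

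Downstream and in feedback, the phosphatase Dusp1 had the firmest state difference of the wider lists. Dusp1 (MKP-1), which removes phosphate from p38 and JNK, was at 124, 126 and 136 FPKM in T-ALL cells and 420, 348 and 369 FPKM in normal cells. The states lie far apart, and Dusp1 fell by 1.55 on the log2 scale (SE 0.17, limma adjusted p = 0.00898), a call that held under 13 of 13 alternatives. It was the 1 of 8 tested phosphatase genes that passed between the states. Dusp16 (MKP-7), which acts on JNK and p38, was at 10.7 (T-ALL) and 6.47 (normal) FPKM in Ly6cloF4/80hi cells and at 26.8 (T-ALL) and 25.8 (normal) FPKM in Ly6chiF4/80lo cells. Its difference between those subsets was -1.54 (SE 0.26, limma adjusted p = 0.0161), lost without the block (0.14) and on leaving out T-ALL Ly6cloF4/80hi (0.071) or normal Ly6cloF4/80hi (0.0971).

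Of 12 tested substrates, 1 passed between the states and 1 between the subsets. Zfp36 (tristetraprolin), an mRNA-decay factor that MK2 phosphorylates, was at 324, 340 and 407 FPKM in T-ALL cells and 1024, 932 and 845 FPKM in normal cells. It fell by 1.39 on the log2 scale (SE 0.21, limma adjusted p = 0.0168), without overlap, and the call was lost on leaving out T-ALL Ly6cloF4/80hi (0.0847) or normal Ly6cloF4/80hi (0.0819). Mef2a, a transcription factor that p38 phosphorylates, was lower in Ly6cloF4/80hi than in Ly6chiF4/80lo cells, with a fitted difference of -1.02 (SE 0.18, limma adjusted p = 0.0205). It was at 12.2 (T-ALL) and 14.8 (normal) FPKM in Ly6cloF4/80hi cells and at 22.1 (T-ALL) and 35.8 (normal) FPKM in Ly6chiF4/80lo cells. The Mef2a call was lost without the block (0.161) and on leaving out T-ALL Ly6cloF4/80hi (0.0507), normal Ly6cloF4/80hi (0.104) or normal Ly6chiF4/80lo (0.0843).

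Of 6 tested kinases that p38 activates, 0 passed between the states (limma, 0 also at an unadjusted p under 0.05) and 1 between the subsets. Mapkapk3, which encodes MK3, the closest relative of MK2, was at 24.6 (T-ALL) and 27.5 (normal) FPKM in Ly6cloF4/80hi cells and at 45.4 (T-ALL) and 57.0 (normal) FPKM in Ly6chiF4/80lo cells. Its difference of -0.94 (SE 0.19, limma adjusted p = 0.0299) has the sign and about the size of the Mapkapk2 difference. The Mapkapk3 call was lost without the filter (0.0617), without the block (0.121) and on leaving out T-ALL Ly6cloF4/80hi (0.114), normal Ly6cloF4/80hi (0.0999) or normal Ly6chiF4/80lo (0.114).

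Of 6 tested mRNAs that the p38 and MK2 axis is known to stabilise, 1 was higher and 2 were lower in T-ALL. Il10, which encodes an anti-inflammatory cytokine, was at 6.65, 4.74 and 7.58 FPKM in T-ALL cells and 1.53, 1.68 and 0.31 FPKM in normal cells, a difference of 1.80 (SE 0.32, limma adjusted p = 0.0241). Ptgs2, which encodes cyclooxygenase-2, was at 0.93, 0.67 and 0.47 FPKM in T-ALL cells and 4.08, 6.43 and 1.83 FPKM in normal cells, a difference of -1.50 (SE 0.27, limma adjusted p = 0.0247). The states do not overlap for either gene. Normal Il10 and T-ALL Ptgs2 values are low, so the size of the difference depends on the pseudocount. With a pseudocount of 0.1 it was 2.57 for Il10 and -2.29 for Ptgs2. The Il10 call was lost without the filter (0.0625), without the block (0.075) and on leaving out T-ALL Ly6cloF4/80hi (0.0953) or normal Ly6cloF4/80hi (0.0934). The Ptgs2 call was lost in the same 4 ways (0.0608, 0.138, 0.08 and 0.0881) and on leaving out normal Ly6cloF4/80lo (0.0622).

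Il1b, which encodes interleukin-1 beta, was at 51.2, 87.3 and 58.7 FPKM in T-ALL cells and 88.4, 115 and 90.5 FPKM in normal cells. Each T-ALL value lies below every normal value, though the gap between the highest T-ALL and the lowest normal value is small. The difference was -0.60 (SE 0.15, limma adjusted p = 0.0498), and the call was lost on leaving out any 1 of the 6 libraries (0.0831 to 0.185), without the filter (0.0895), without the trended and robust prior (0.0636) and without the block (0.278).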

How the data were processed

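Per the labels' protocols, RNA of 6 sorted macrophage fractions was extracted with an RNeasy kit and went through Illumina HiSeq library preparation and sequencing. The deposited files hold FPKM per Entrez gene, which the authors made with Bowtie2 2.2.5 and RSEM, per the submitters' processing notes. No genome build, annotation or strand setting is given in the sources used here. A gene absent from a library was taken as 0. Symbols came from a RefSeq table (GRCm38.p6) for 99.7% of identifiers.

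Values were used as log2(FPKM + 1), which understates changes of low genes. limma 3.58.1 (statmod 1.5.0, R 4.3.3) with a trended and robust prior was fitted to the 11616 genes that passed the filter, with terms for subset and state, leaving 2 residual degrees of freedom, and an adjusted p under 0.05 passed. The fit and the depth estimate were tested on simulated data. Tables, depth and figures used Python 3.11.15, numpy 2.4.6, pandas 2.3.3 and matplotlib 3.10.9. Depth came from the spacing of low FPKM values in 132 to 157 genes per library, divided by annotated GENCODE M21 lengths.

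All 10 members are named. Of each wider list, genes that passed were named, up to 4 between the states and up to 2 between the subsets, or else up to 2 with the largest change and at least 5 FPKM in 1 library; not all of the last kind are printed. One further list kept for comparison is not reported here. For the 3 members of largest range, the 3 genes with the highest correlation and at least 10 FPKM in 1 library were named. The members and lists were chosen with earlier results of these data known. Alternatives were a pseudocount of 0.1, no filter, median-ratio rescaling, a minimum mean of 5 FPKM, quantile normalization, no prior, no block, and each library left out.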

Additional observations from a re-analysis of the deposited data

Results flagged for a closer look

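For 6 of the 10 members the T-ALL minus normal difference on the log2(FPKM + 1) scale had opposite signs in different subsets. It had 1 sign in all 3 subsets for the other 4, beside 57.9% of all tested genes. These contrasts were not tested, since each subset has 1 library per state. The difference between the highest and the lowest subset was 1.06 for Gadd45b (1.02 in Ly6chiF4/80lo and -0.05 in Ly6cloF4/80lo cells). It was 0.80 for Map2k7 (0.20 in Ly6cloF4/80hi and -0.60 in Ly6chiF4/80lo cells). Smaller gaps were found for Map2k4 at 0.42 (0.35 in Ly6cloF4/80hi and -0.07 in Ly6cloF4/80lo cells) and for Mapk9 at 0.37 (0.26 in Ly6cloF4/80hi and -0.11 in Ly6cloF4/80lo cells). Mapkapk2 had a gap of 0.35 (0.29 in Ly6cloF4/80hi and -0.06 in Ly6chiF4/80lo cells), and Map3k5 one of 0.27 (0.0048 in Ly6cloF4/80lo and -0.26 in Ly6chiF4/80lo cells). No member had a difference of at least 0.5 in one subset and of -0.5 or lower in another (0 of 10).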

How the results depend on the processing

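No pairing of libraries by mouse was possible because the labels tie no library to a mouse. The reported fit pairs T-ALL with normal within each subset through the subset block. Of the T-ALL against normal results, the count of members called (1) was 0 without the filter, 0 without the trended and robust prior, 0 without the block and 0 in each of the 6 fits that left out a library. Between Ly6cloF4/80hi and Ly6chiF4/80lo cells the count (2) was 1 without the filter, 1 after quantile normalization, 0 without the block and 0 to 2 with a library left out. The counts of 0 members in the other 2 subset comparisons stayed at 0 with a library left out. The 2-fold count was 0 in Ly6chiF4/80lo cells after quantile normalization, and 1 in Ly6cloF4/80lo and 1 in Ly6cloF4/80hi cells with a pseudocount of 0.1 (Map2k6 in Ly6cloF4/80lo and Mapk8, always under 5 FPKM, in Ly6cloF4/80hi cells). The cause of these shifts was not tested.

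Without the filter, genes called were 370 of T-ALL against normal (1410 in the reported fit), 867 of Ly6cloF4/80hi against Ly6chiF4/80lo (1485), 156 of Ly6cloF4/80lo against Ly6chiF4/80lo (549) and 173 of Ly6cloF4/80hi against Ly6cloF4/80lo (414). Without the block they were 161, 197, 0 and 0 in that order of comparisons. With a library left out they ranged over 318 to 1028, 621 to 1339, 79 to 756 and 127 to 665.

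Some small differences changed sign. Mapk13 between the states was -0.18 with a pseudocount of 0.1 and -0.023 after quantile normalization. Between Ly6cloF4/80lo and Ly6chiF4/80lo cells, Map2k7 was -0.18 after median-ratio rescaling and -0.12 after quantile normalization, and Map3k5 was -0.00066 and -0.057. With a library left out, T-ALL against normal ranged from -0.012 to 0.20 for Map2k4, -0.042 to 0.13 for Mapkapk2, -0.52 to 0.34 for Mapk13 and -0.43 to 0.035 for Mknk2. Ly6cloF4/80hi against Ly6chiF4/80lo ranged from -0.22 to 0.14 for Map2k4, -0.56 to 0.059 for Map2k7, -0.44 to 0.35 for Gadd45b, -0.26 to 0.71 for Arrb2 and -0.038 to 0.40 for Mapk8ip3. Ly6cloF4/80lo against Ly6chiF4/80lo ranged from -0.23 to 0.13 for Map2k3 and -0.27 to 0.32 for Map2k7. Ly6cloF4/80hi against Ly6cloF4/80lo ranged from -0.056 to 0.26 for Mapk9, -0.32 to 0.021 for Mapk14 and -0.58 to 0.034 for Map2k7. For T-ALL against normal, the lone library left in a subset is fitted by its own subset term and does not enter the difference. Leaving out either library of a subset therefore gave the same difference, such as -0.53 for Mapk14 without either Ly6cloF4/80hi library. In a comparison of subsets, the lone library of a subset is assumed to vary like the others. Every fit with a library left out has fewer residual degrees of freedom than the reported fit. For any gene named here, a call lost in such a fit does not by itself show that the difference rests on that library.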
